A study of Homo sapiens with 9 samples.

Results

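HepG2 is a human hepatoma cell line that keeps many features of hepatocytes. It was used here to map accessible chromatin by ATAC-seq, in which a transposase cuts open DNA. The 3435 regions described here are intronic elements far from promoters that were accessible in all 3 peak lists of the study. One list came from cells with the non-targeting siRNA (NTG) and 2 came from cells with siINO80#1 or siINO80#2, independent siRNAs against INO80, each given at 50 nM for 72 hours. The INO80 protein uses ATP to move nucleosomes as the core of a remodeling complex. The 9 samples were 3 replicates, A, B and C, of each siRNA in this 1 cell line, and the replicates of an siRNA share 1 pooled peak list. No spread between replicates can therefore be given, and none of the differences between lists below has a replicate check or a test.

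The members were selected on measured values, namely the presence of a peak in every list, together with position and sequence. Intervals of the 3 lists on the 22 autosomes were merged into 109960 regions, of which 29350 held a peak of every list. Of these, 13441 lay more than 5 kb from any annotated transcript start, 5621 of those lay wholly inside a protein-coding gene, and 5114 of those overlapped no exon. A further 1679 were set aside because an exact 7-bp AP-1 consensus (TGAGTCA or its reverse complement) lay within 100 bp of a summit. The remaining 3435 regions were 11.7% of the regions of all 3 lists. The regions nearest to the distance limit on the outer side lay in KCNK2, SYT16 and TSHR, each 5004 bp from a start, and those just within it, which are no members, lay in EGF (4998 bp), MAPK6 (4988 bp) and MBD5 (4983 bp). Genes that mark the cell type were checked at their start sites. AFP, APOA1, APOB, TTR, SERPINA1, HNF4A and FOXA2 had an accessible start in all 3 lists, and ALB had one in 2 lists but not with siINO80#2. Of the markers of other cell types, PTPRC had one in 1 list, and CD3E, COL1A1, PECAM1 and GFAP had none.

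Introns hold many of the enhancers of mammalian genes. Such elements are bound by transcription factors that recognize short sequences and keep the DNA free of nucleosomes. In liver cells, FOXA proteins are known as pioneer factors that open chromatin, C/EBP, HNF1 and HNF4A drive hepatocyte genes, and CTCF marks boundaries and anchors of chromatin loops. YY1 binds DNA and is also a subunit of the INO80 complex. An exact match to a motif is a description of the sequence and does not show that the factor was bound.

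The sequences of a few members show what the motifs look like in place. Each is GRCh37 sequence, forward strand, reaching 100 bases to both sides of the strongest summit of the region, with the motif in capitals. For each of 6 motifs the strongest member with a match within 50 bp of the summit is given. JRKL carried the FOXA motif at chr11:96220574-96220774, GNG12 the HNF4A motif at chr1:68225812-68226012, CDH7 the C/EBP motif at chr18:63455720-63455920, AHR the HNF1 motif at chr7:17246163-17246363, EYS the CTCF motif at chr6:65179401-65179601 and MEI4 the YY1 motif at chr6:78589330-78589530. The last is the member with the largest fall from NTG, by the smaller of its falls with the siRNAs. It is EDAR at chr2:109561259-109561459, with none of the motifs.
JRKL: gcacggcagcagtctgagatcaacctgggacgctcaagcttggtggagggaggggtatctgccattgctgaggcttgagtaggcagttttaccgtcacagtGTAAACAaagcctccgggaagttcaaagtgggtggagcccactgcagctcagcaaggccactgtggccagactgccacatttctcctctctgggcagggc
GNG12: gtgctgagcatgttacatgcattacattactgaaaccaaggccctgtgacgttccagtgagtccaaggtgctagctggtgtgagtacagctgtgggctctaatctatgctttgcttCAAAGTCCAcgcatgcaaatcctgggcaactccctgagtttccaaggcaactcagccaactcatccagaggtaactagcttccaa
CDH7: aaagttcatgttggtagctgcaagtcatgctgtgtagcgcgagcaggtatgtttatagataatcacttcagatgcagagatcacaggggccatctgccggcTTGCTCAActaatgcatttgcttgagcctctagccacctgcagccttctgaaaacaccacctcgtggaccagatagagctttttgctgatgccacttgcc
AHR: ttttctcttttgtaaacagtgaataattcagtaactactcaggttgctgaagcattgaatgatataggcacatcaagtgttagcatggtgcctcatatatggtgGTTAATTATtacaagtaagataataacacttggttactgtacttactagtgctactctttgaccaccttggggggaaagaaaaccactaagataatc
EYS: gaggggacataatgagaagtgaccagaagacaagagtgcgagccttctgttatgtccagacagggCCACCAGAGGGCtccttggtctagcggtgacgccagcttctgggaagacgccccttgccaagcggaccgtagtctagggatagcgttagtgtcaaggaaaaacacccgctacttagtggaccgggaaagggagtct
MEI4: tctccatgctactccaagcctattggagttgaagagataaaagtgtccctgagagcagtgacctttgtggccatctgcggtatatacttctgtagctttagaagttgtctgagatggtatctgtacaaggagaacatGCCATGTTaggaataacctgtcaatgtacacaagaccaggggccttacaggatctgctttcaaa
EDAR: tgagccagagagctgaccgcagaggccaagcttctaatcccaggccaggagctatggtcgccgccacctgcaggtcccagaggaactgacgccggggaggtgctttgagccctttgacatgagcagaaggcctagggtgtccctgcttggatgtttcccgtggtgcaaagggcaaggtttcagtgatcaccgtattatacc

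The 18 motifs were searched within 100 bp of the strongest summit of each member, on both strands. Windows of the same length 1 kb to either side of the summit (6870 windows) served as flanks, and intervals are 95% Wilson or Newcombe intervals that treat windows as independent and cover counting error only. The most frequent motif was C/EBP (TTGCNNAA), found in 482 members (14.03%), but it was also frequent in the flanks (11.2%), a difference of 2.87 points (1.51 to 4.27). The FOXA motif (TGTTTAC) was found in 363 members (10.6%) against 3.10% of flanks, a difference of 7.47 points (6.39 to 8.61). The CTCF motif was found in 254 members (7.39%) against 0.277% of flanks, a difference of 7.12 points (6.28 to 8.05). In percentage points, FOXA and CTCF thus stood furthest above the surrounding sequence, while C/EBP was common on both sides of the summit. Over a grid of the intronic bases where a member could lie, the same shares were 10.8% for C/EBP, 3.20% for FOXA and 0.276% for CTCF.

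The other motifs of liver factors were rarer. HNF1 (GTTAATNAT) was found in 81 members (2.36%) against 0.844% of flanks, and the HNF4A motif (CAAAGTCCA) in 41 members (1.19%) against 0.277%. A second forkhead sequence, TATTTAC, was found in 6.17% of members and 4.67% of flanks. DR1 (2.07% against 0.946%) and NR5A/ERR motifs (2.36% against 1.37%) also stood above the flanks. For GATA (4.10% against 3.39%) the interval of the difference held 0 (-0.0507 to 1.54). ONECUT was lower in members (0.262% against 0.335%), again with an interval that held 0 (-0.281 to 0.188). TEAD motifs (CATTCCA), which mark targets of the Hippo pathway, were found in 5.91% against 3.86%. YY1 (AANATGGC) went the other way, with 95 members (2.77%) against 3.99% of flanks, a difference of -1.22 points (-1.92 to -0.477). Among single-copy windows, defined below, YY1 was in 2.72% of members and 3.42% of flanks. That difference was -0.701 points, with an interval that held 0 (-1.42 to 0.0629). At least 1 of 9 liver factor motifs, FOXA and C/EBP included, lay in 36.1% of members and 23.3% of flanks, and 49.8% of members had none of the 18 motifs.

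The members differed from other accessible regions in part. Regions of all 3 lists in intergenic DNA, chosen by the same limits on distance and AP-1, had the FOXA motif in 9.42% and the CTCF motif in 8.38% of windows. Their C/EBP share was 11.4%, so the members stood 2.60 points above them (1.17 to 4.06). Their HNF4A share was 1.87%, so the difference of the members from them was -0.680 points (-1.19 to -0.143). Regions within 1 kb of a transcript start had 2.65% FOXA and 32.6% of the SP/KLF motif (GGGCGGG), which was found in 2.27% of members. The intronic regions set aside for AP-1 had the FOXA motif in 6.49% and the CTCF motif in 1.31%. Intronic regions of the same kind that were found in only 1 list had 4.32% FOXA and 1.64% CTCF. They were also weaker and narrower than the members. Those of the NTG list had a median of 15 reads at the summit, against 28 for members in NTG. The median width of the regions of 1 list was 205 bp, against 645 bp. The part of peak strength in these motif shares was not tested. The median GC content was 46.8% in members, 39.8% in flanks and 64.2% at transcript starts.

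**Figure D1:**
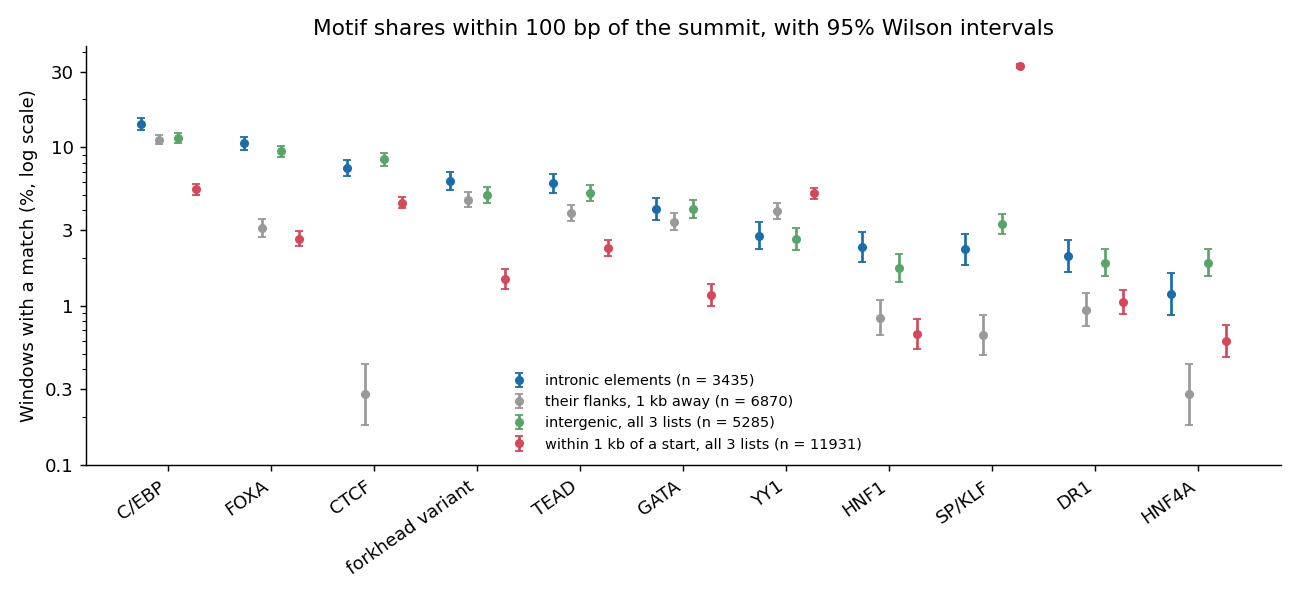
Share of windows with an exact match within 100 bp of the strongest summit (percent, log axis) for 11 motifs in members and in the classes of windows named in the key; bars on the points are 95% Wilson intervals. FOXA (10.6% of members against 3.10% of flanks) and CTCF (7.39% against 0.277%) have the largest differences from the flanks in percentage points; by ratio, rarer motifs such as HNF4A (4.32 times) pass FOXA (3.41 times).

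The matches were placed differently around the summit. The density of CTCF matches at the centre was 40 times that in the flanking sequence. The same ratio was 4.02 for FOXA, 3.97 for HNF4A, 2.49 for HNF1, 1.86 for TEAD, 1.36 for C/EBP and 0.579 for YY1. CTCF matches thus were the most concentrated and YY1 matches were sparser at summits than beside them. The summits of members with a CTCF match also lay closer together between lists: all 3 summits fell within 50 bp in 69.3% of them (63.4 to 74.6), against 44.5% of all members. Their regions were also narrower, with a median width of 548 bp against 645 bp.

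**Figure D2:**
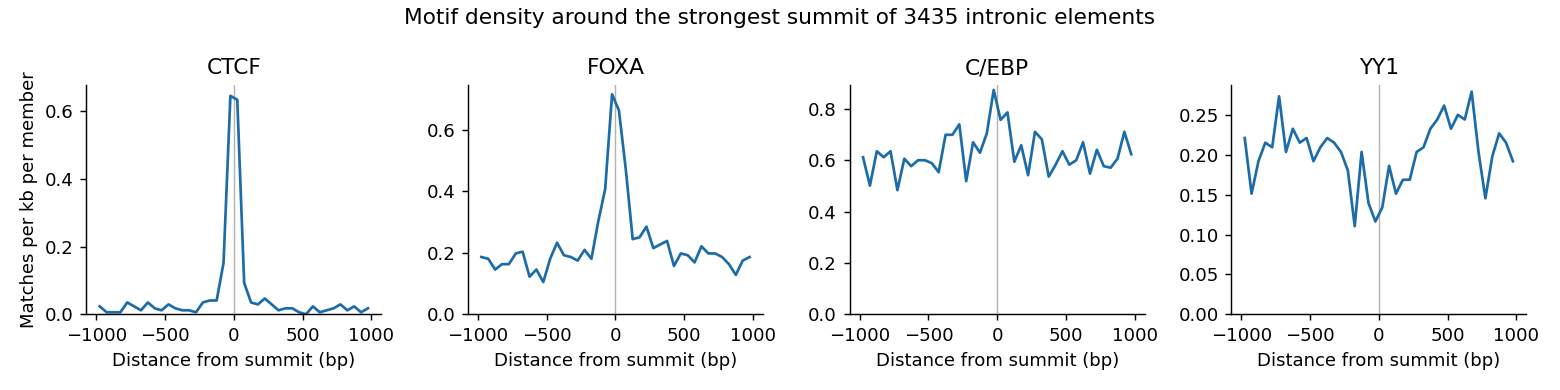
Density of exact CTCF, FOXA, C/EBP and YY1 matches against distance from the strongest summit of the members, in bins of 50 bp. CTCF and FOXA peak at the summit, C/EBP rises little (1.36 times the flanks) and YY1 dips (0.579 times).

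Many of the FOXA matches lay in copies of 1 repeated sequence. This was found by counting how often each run of 20 bases in a window occurs in GRCh37, and was examined after the sequences had been seen. Repeated windows, with a median of at least 2 copies, were rarer in members (231 of 3435, 6.72%) than in flanks (17.8%), a difference of -11.0 points (-12.2 to -9.78). Among members with repeated windows, 36.8% (85 of 231) had the FOXA motif, against 1.23% of repeated flanks. Among members with a single-copy window, meaning a median below 2 copies, 8.68% (278 of 3204) had it, against 3.50% of such flanks. Part of the runs in such a window can still be repeated. When repeated members were linked by shared runs of 20 bases, the largest group held 95 members, of which 79 had FOXA and 0 had CTCF. The next groups held 15 and 7 members, with 0 FOXA matches each.

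Copies of this sequence, aligned on the FOXA motif (capitals) in the direction of TGTTTAC, are shown from JRKL, PTPN13 and NPSR1 (chr11:96220645-96220711, chr4:87712453-87712519 and chr7:34853953-34854019, reverse strand). The 60 bases around the motif were the same as in JRKL at 33 positions in PTPN13 and at 29 in NPSR1. The strongest FOXA members with a single-copy window are shown for contrast: ATP8B4 (chr15:50296016-50296082, reverse), CHL1 (chr3:306502-306568, reverse) and LEPR (chr1:65933369-65933435, forward). ATP8B4 shared 19 and CHL1 20 of the 60 bases with JRKL, whereas LEPR shared 35 and so resembles the repeated copies although its window is single-copy.
JRKL: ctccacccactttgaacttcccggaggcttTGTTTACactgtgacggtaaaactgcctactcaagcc
PTPN13: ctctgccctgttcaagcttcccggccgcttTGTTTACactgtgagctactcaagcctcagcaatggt
NPSR1: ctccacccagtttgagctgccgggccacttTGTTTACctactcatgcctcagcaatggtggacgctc
ATP8B4: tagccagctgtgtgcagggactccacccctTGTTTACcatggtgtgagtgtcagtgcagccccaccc
CHL1: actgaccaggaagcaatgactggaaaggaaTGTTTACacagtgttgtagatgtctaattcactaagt
LEPR: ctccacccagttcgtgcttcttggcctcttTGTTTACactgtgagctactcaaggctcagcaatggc

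To count such copies by sequence alone, a match was placed in the family when at least 20 of the 30 bases before the motif were the same as in JRKL. By this measure 77 of the 363 FOXA members (21.2%, 17.3 to 25.7) belonged to it, and the highest value below the limit was 16. In flanks, 1 of 213 FOXA matches did so (0.469%), at transcript starts 10 of 316 (3.16%), in intronic regions of 1 list 53 of 670 (7.91%) and in intergenic regions of all 3 lists 126 of 498 (25.3%). In the last 3 of these classes the highest value below the limit was 19, so the limit parts the copies less cleanly there. The 77 members lay in 75 host genes on 14 chromosomes, and 8 of the 77 had a single-copy window. Without the family, the FOXA share of members was 8.33% against 3.09% of flanks, a difference of 5.24 points (4.26 to 6.28), so most of the difference remained. The sequence occurs at 6459 autosomal places. Of 1867 places in introns where a member could lie, 90 (4.82%, 3.94 to 5.89) were inside a member and 194 (10.4%) were inside a region of any list, so most copies were in no peak. Reads from near-identical copies cannot always be placed uniquely, which limits what can be said of the levels of these copies. How such reads were treated is not given in the sources used here.

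**Figure D3:**
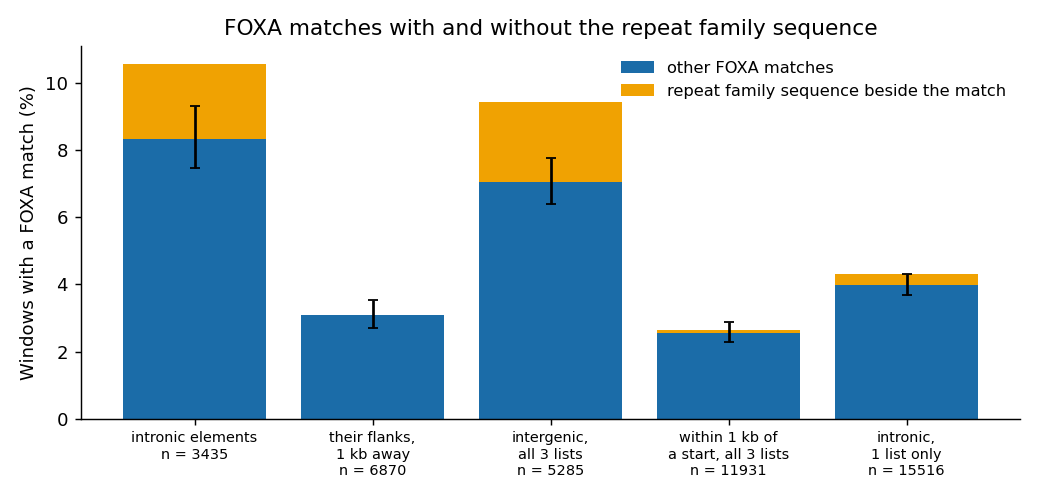
Share of windows with the FOXA motif (percent) in members and in other classes of windows, divided into matches in the repeated family and all other matches. The other matches alone reach 8.33% in members and 3.09% in flanks.

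The strength of a peak was taken as fold enrichment, the reads at the summit over the local background as deposited. As it is scaled within each list, it was compared between lists by its percentile, from 0 for the weakest to 100 for the strongest interval of that list. The lists held 69730 intervals in NTG, 69333 with siINO80#1 and 53113 with siINO80#2. A percentile depends on how many weak intervals its list holds. The members had median percentiles of 75.4 in NTG, 73.3 with siINO80#1 and 65.6 with siINO80#2, and median folds of 4.91, 4.43 and 3.81. The folds in NTG ranged from 2.06 to 18.2, with a median of 28 reads at the summit. Over all 29350 regions of the 3 lists the median percentiles were 76.2, 76.1 and 69.4, so the members were not stronger than other regions found in every list. Both lay in the upper part of each list, and the rule itself leans to strong peaks. Of intronic distal regions without AP-1, 5.79% of those below NTG percentile 10 and 91.2% of those above percentile 90 were in all 3 lists. Background reads of the genome were 3.82, 5.16 and 5.34, that is 1.35 and 1.40 times NTG with siINO80#1 and siINO80#2. They are the lowest background in each list, calculated from the deposited fold and p value.

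The 10 strongest members, by the lowest of their 3 percentiles, lay in RALYL, KCNH7, TDRD3, JRKL, SUB1, LSAMP, EYS, ATP8B4, PPP3CA and SLC7A11. The element in intron 2 of KCNH7, a potassium channel gene (chr2:163430770-163432005), had 190 reads in NTG (exact Poisson 95% interval 164 to 219), 237 with siINO80#1 (208 to 269) and 157 with siINO80#2 (133 to 184). Its folds were 15.9, 18.5 and 13.6. The element in intron 6 of SLC7A11, the cystine transporter gene (chr4:139120103-139121536), had folds of 11.9, 12.6 and 10.9, with 80, 103 and 103 reads. Both stood in the top percentile of every list. The element of intron 2 of PPP3CA, a catalytic subunit of calcineurin, had folds of 18.2, 13.1 and 10.9. Windows of 3 of the 10 are repeated: JRKL, SUB1 and EYS, with median copy numbers of 6, 20 and 3.

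The position inside genes differed from that of the eligible intronic bases, 764 Mb in all, where a member could lie. The first intron held 931 members (27.1%, 25.6 to 28.6), against 22.7% of eligible bases. The second held 17.7% against 15.9%, and the third and later introns held 47.5% against 55.8%. Members more than 100 kb from a start were 3.20% of all, against 4.69% of eligible bases. The median distance to a start was 16455 bp for members and 17801 bp for eligible bases, so the members lay somewhat closer to starts even beyond the 5 kb limit. These shares describe the regions found, and the rule fixed only the limit itself.

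The members lay in 1948 of 11701 genes with eligible sequence (16.6%), at 4.495 per eligible Mb, and 1234 genes held 1 member. The genes with the most members were long: LRP1B with 19, EYS with 17, TTC6 and ERBB4 with 16 each and MACROD2 with 14. Among genes with at least 5 members, the densest were RREB1 (6.57 per 100 kb of eligible intron), ADGRG6 (6.56), GULP1 (5.34), RETREG1 (5.30) and FRK (5.29). Among chromosomes, the density was highest on chromosome 2 (8.23 per eligible Mb), 6 (7.52), 14 (6.14) and 20 (6.11) and lowest on chromosome 19 (0.767). Median background reads in NTG were 6.87 on chromosome 14 and 7.18 on 20, against 4.62 over all members, but they were also high on chromosomes 17 (7.27) and 16 (6.78), where the density was 2.39 and 3.96. The part that local read depth or copy number plays in these densities was not tested.

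**Figure D4:**
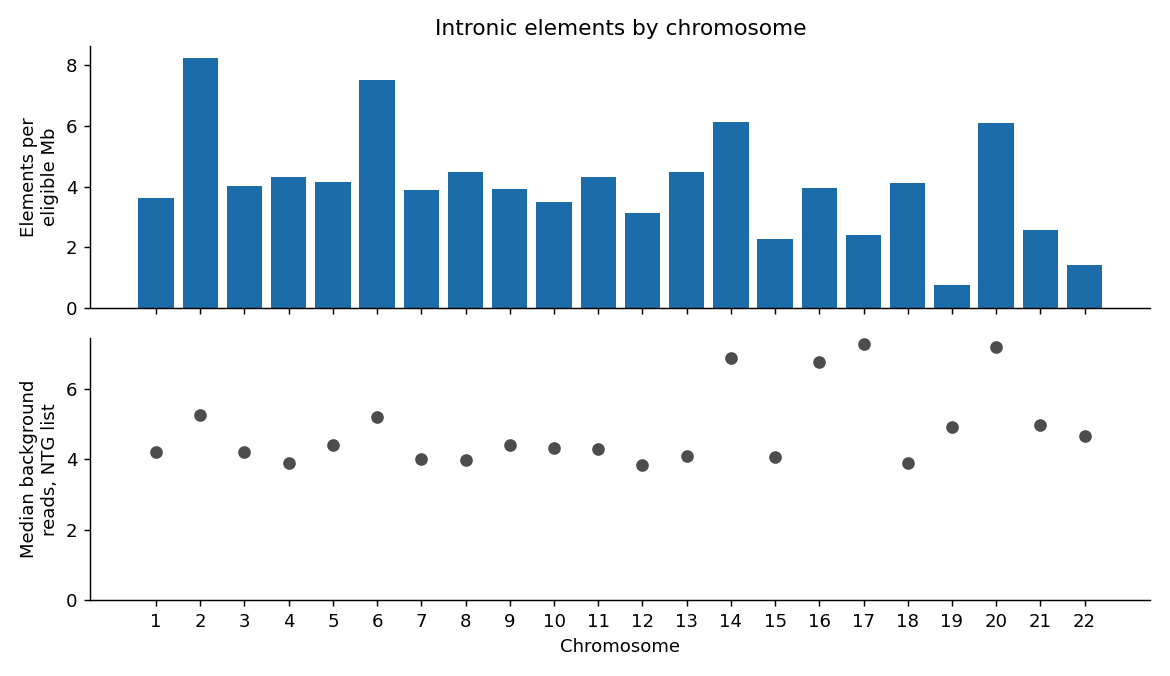
Members per eligible Mb and median background reads of the members in NTG for each autosome. Chromosomes 2 and 6 have the highest density (8.23 and 7.52), and chromosomes 14, 16, 17 and 20 have the highest background (6.78 to 7.27 reads).

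Genes of liver metabolism and liver transcription factors held members more densely than long neuronal genes. Of 30 metabolic genes with eligible intron, 9 held 18 members (14.7 per Mb). CPS1, which starts the urea cycle, held 4, the strongest in intron 1 with folds of 7.11 in NTG, 6.50 with siINO80#1 and 5.998 with siINO80#2. ARG1, which ends the urea cycle, had 1 member in intron 1 with folds of 8.42, 8.78 and 5.16. By percentile, CPS1 stood at 90.5, 89.1 and 88.3 and ARG1 at 94.6, 95.9 and 82.5, in the same order of lists. From NTG to siINO80#2 this was -2.14 points in CPS1 and -12.2 in ARG1, against a median of -6.71 over all members. PPARGC1A, a coactivator of gluconeogenic genes, had folds of 11.2, 5.06 and 3.96 at its strongest element. Its percentile differed from NTG by -18.9 points with siINO80#1 and -30.4 with siINO80#2.

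Of 17 genes of hepatocyte transcription factors with eligible intron, 6 held 10 members (8.20 per Mb), with folds of 10.2, 8.45 and 6.63 at HNF4G and 9.79, 6.92 and 9.12 at ESRRG, both nuclear receptor genes. The element in ONECUT1 was weaker in NTG and siINO80#1 (folds 3.68 and 3.42, percentiles 57.0 and 57.5) than with siINO80#2 (5.16, percentile 82.4). Of 18 genes in the list of plasma proteins, 2 held 1 member each. One is F5, coagulation factor V (3.29, 4.08 and 3.30). The other, in sequence shared by A1CF and ASAH2B (10.5, 10.1 and 6.16), is counted through A1CF, which encodes no plasma protein but an RNA-binding factor of APOB mRNA editing. None of 8 genes for INO80 complex subunits with eligible intron held a member, but these have 0.151 eligible Mb in all, too little to show a lower density than the 4.495 per Mb of all genes. Of 31 long neuronal genes, 26 held 125 members, at 3.22 per Mb. The strongest lay in LSAMP (14.99, 15.3 and 11.5) and PCDH15 (11.8, 14.3 and 13.6), genes for adhesion proteins. These lists are small, and no test of them was made.

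Differences between lists were counted where the percentile moved by at least 20 points from NTG. With siINO80#1, 481 members (14.003%) stood lower, against a background of 10.4% over all 29350 regions of the 3 lists, and 390 (11.4%) stood higher, against 11.9%. With siINO80#2, 895 members (26.1%) stood lower, against 21.1%, and 285 (8.30%) stood higher, against 8.75%. The siINO80#2 list held fewer intervals than the others, and the part of list size in these shifts was not tested. With both siRNAs, 285 members (8.30%) stood lower, against 6.35%, and 213 (6.20%) stood higher, against 6.44%. Both siRNAs are set against the same NTG list, so a member that shifts the same way with both gives no independent support. The shares of higher members lay near the background, and those of lower members were above it by a few points. Intergenic regions of all 3 lists without AP-1 came close to the members. Of these, 12.9% stood lower with siINO80#1, 23.5% with siINO80#2 and 7.46% with both. The shares that stood higher were 13.0%, 8.91% and 6.41%. The median shift of the members was -1.15 points with siINO80#1 and -6.71 with siINO80#2. In the intronic regions set aside for AP-1, 7.68% stood lower and 21.3% higher with siINO80#1, and 13.8% lower and 19.2% higher with siINO80#2. The shift moved with the NTG level. Members below NTG percentile 25 had a median shift with siINO80#1 of 33.7 points and those above percentile 75 of -3.61. Ranks near an end of a list can move mainly one way. The rule also kept regions weak in NTG only where both siINO80 lists held a peak. The part of either in this pattern was not tested.

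The member in intron 1 of EDAR, a receptor of the TNF family, fell most in percentile when members were ordered by the smaller of their falls with the siRNAs. It had 44 reads in NTG (32.0 to 59.1), 25 with siINO80#1 (16.2 to 36.9) and 24 with siINO80#2 (15.4 to 35.7), over backgrounds of 7.72, 10.8 and 11.3, and folds of 5.16, 2.21 and 2.03. The next largest falls were in CDH23, MAPRE3, ARHGAP42 and QKI. The member in intron 1 of RGS17, a regulator of G protein signaling, rose most by the same measure, with percentiles of 10.3, 88.4 and 90.9. It had 16 reads in NTG (9.15 to 26.0), 56 with siINO80#1 (42.3 to 72.7) and 61 with siINO80#2 (46.7 to 78.4), and folds of 2.55, 6.36 and 6.51. The next largest rises were in ERBB4, SGCD, GRM5 and EGLN1. The read intervals cover counting error only, and raw reads are not comparable between lists, whose background differs. These members were picked as extremes of all 3435, so their values are a description.

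Members with the FOXA motif were found more often among those that stood higher. With siINO80#1, 31 of the 481 lower members (6.44%), 10.8% of those between and 56 of the 390 higher members (14.4%) had it, a difference of 7.91 points between higher and lower (3.87 to 12.2). With siINO80#2, the values were 69 of 895 (7.71%), 11.2% and 41 of 285 (14.4%), a difference of 6.68 points (2.59 to 11.5). Without the repeated family the differences were 6.13 (2.45 to 10.1) and 5.45 (1.72 to 9.96). The higher members were weak in NTG, with median NTG percentiles of 33.2 and 29.8 against 74.0 and 76.2 for the lower members. Between NTG percentiles 25 and 75, the differences were 8.85 (3.40 to 14.5) and 9.34 (3.65 to 16.2). Higher members also had less GC, with a median of 43.8% for both siRNAs against 48.8% and 47.8% for the lower ones. What part GC and the NTG level have in this was not tested. For CTCF the difference between higher and lower was -2.28 points (-5.07 to 0.585) with siINO80#1 and -3.99 (-6.39 to -0.869) with siINO80#2. Between NTG percentiles 25 and 75 both intervals held 0, with differences of -0.692 (-4.27 to 2.87) and -2.92 (-6.41 to 1.85). For C/EBP the difference between higher and lower was -1.06 (-5.59 to 3.61) with siINO80#1 and -0.394 (-4.66 to 4.56) with siINO80#2.

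**Figure D5:**
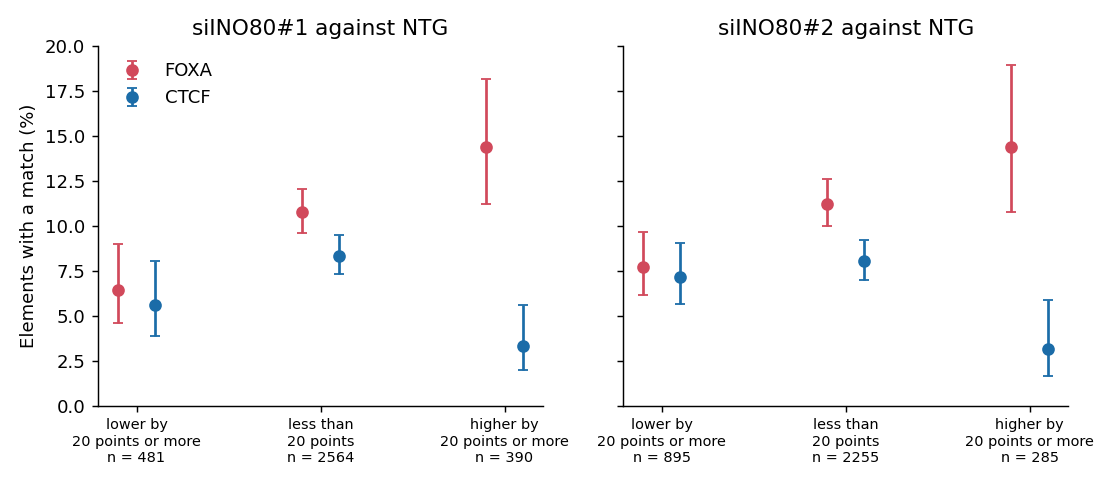
Share of members with the FOXA or CTCF motif (percent) among members that stood lower, between or higher by at least 20 percentile points, for each siRNA against the same NTG list; bars are 95% Wilson intervals. FOXA is 14.4% of higher members with either siRNA, against 6.44% and 7.71% of lower members.

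The 77 members of the repeated family had median percentiles of 83.2 in NTG, 88.2 with siINO80#1 and 76.6 with siINO80#2. Their median shifts were 4.76 and -0.348 points, and 56 of 77 (72.7%) lay above 0 with siINO80#1 and 37 (48.1%) with siINO80#2. Of all 3435 members, 1573 and 1094 lay above 0. Among the 3072 members without FOXA the shares were 44.2% and 30.9%. Over all members with FOXA the median percentiles were 78.2, 79.4 and 71.7. Fewer CTCF members were called with both siRNAs: 3.94% stood lower and 1.97% stood higher, against 8.30% and 6.20% of all members. Their median shifts were -1.21 points with siINO80#1 and -7.16 with siINO80#2, close to the -1.15 and -6.71 of all members. With siINO80#2 alone, 64 of the 895 lower members had CTCF (7.15%), near the 7.39% of all members. The chromosomes with the highest shares of members lower with both were 17 (21.3% of 47), 16 and 22 (15.4% each, of 78 and 13), 20 (15.1%) and 14 (14.6%). Over all regions of the 3 lists the same shares were 12.98% on chromosome 17, 8.99% on 16, 13.3% on 22, 9.36% on 20 and 7.66% on 14, all above the 6.35% of the genome. Members higher with both were 11.7% of 77 on chromosome 18, 10.6% of 47 on 17 and 10.4% of 106 on 20. Over all regions of the 3 lists these shares were 7.03%, 3.83% and 7.46%, against 6.44% of the genome. Background reads in NTG were highest on 14, 16, 17 and 20, from 6.78 to 7.27, and were 3.90 on 18. The part of background reads in the shares was not tested.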

How the data were processed

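HepG2 cells were assayed by ATAC-seq 72 hours after siRNA transfection. The authors' processing notes name Trim Galore 0.4.1, Bowtie2, SAMtools, MACS2 and deepTools 2.2.4, and the build hg19 (GRCh37). Roles and further versions are not given in the sources used here. The authors deposited 1 peak list per siRNA, with fold enrichment (a ratio) of each summit over local background, and −log10 of the p and q values. Each list stands for 3 replicates, and whether they were merged before calling is not given, so depth per replicate is unknown. Reads at summits were recovered from the fold and −log10 p. The lowest −log10 q in the lists was 1.30.

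Lists were merged at a distance of 0 bp and annotated with GENCODE release 44 on GRCh37. No interval ended past a chromosome end and no summit lay on an undetermined base. Motifs were searched exactly in GRCh37. Shares have Wilson intervals, their differences Newcombe intervals, and reads exact Poisson intervals, all at 95%. The members and lists were chosen with earlier results of these data known. Named regions were the 10 strongest members and the strongest member of each listed gene. The 5 largest falls and 5 largest rises from NTG with both siRNAs were also named. So were the 5 genes with the most members, and the 5 with the highest density among genes with at least 5 members. The regions nearest the 5 kb limit were named as well. A few of these genes and sequences are not reported here. The search for repeated sequence (20-base runs) and the FOXA family were chosen after the sequences were seen. Alternatives were peak threshold, merging, list size, overlap, distance, starts used, AP-1 search, window, ranked measure and shift size. The tools were bedtools 2.31.1, pysam 0.24.0, numba 0.67.0, pandas 2.3.3, numpy 2.4.6, matplotlib 3.10.9 and scipy 1.17.1, in Python 3.11.15.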

Additional observations from a re-analysis of the deposited data

Results flagged for a closer look

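In 12 members the siRNAs moved the percentile by at least 20 points in opposite directions relative to NTG, which is 0.349% of members against 0.508% of all regions of the 3 lists. The difference was not tested. In 10 of the 12 the percentile was higher with siINO80#1 and lower with siINO80#2. The siINO80#2 list is the shortest, and the part of list size in this was not tested. The widest gap was in KIF16B, a kinesin gene (chr20:16259869-16260586), with percentiles of 45.1 in NTG, 76.1 with siINO80#1 and 1.42 with siINO80#2, and 29, 59 and 27 reads. The opposite order was seen in HIPK2, a protein kinase gene, with percentiles of 52.2, 9.86 and 73.2 from 16, 14 and 27 reads, and in MRPS28.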

How the results depend on the processing

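The number of members was 1889 when −log10 q was at least 5 in every list and ranged from 1889 to 5114 over all settings, against 3435. The first-intron share (27.1%) was 25.2% at the higher peak threshold, 25.5% beyond 10 kb (eligible bases 21.7%) and 23.1% with the transcript of most exons (eligible bases 19.5%). The FOXA share (10.6%) was 9.23% without the AP-1 criterion, 6.52% in a 100-bp window (flanks 1.66%) and 14.9% in a 400-bp window (flanks 6.36%). It was 8.68% over members with a single-copy window, an alternative chosen after seeing the data. Members lower with both siRNAs (8.30%, all regions of the 3 lists 6.35%) were 10.3% at the higher threshold (all regions 8.04%), 6.67% with lists of equal size (4.94%), 6.77% without the AP-1 criterion (6.35%), 10.6% when only regions of all 3 lists were ranked (7.69%), 19.97% for shifts of 10 points (15.7%) and 3.49% for 30 points (2.52%). The excess over all regions was thus smallest without the AP-1 criterion. Members higher with both (6.20%, all regions 6.44%) were 7.09% (7.60%), 3.54% (4.24%), 8.84% (6.44%), 7.66% (8.40%), 10.9% (12.3%) and 3.20% (3.41%) under the same settings, in that order, and 5.30% (5.52%) when pileup was ranked. Without the AP-1 criterion, higher members thus outnumbered lower ones, the opposite of the reported order. The cause of these moves was not tested beyond what each setting changes by itself. Ranked among regions of all 3 lists only, the median percentiles of the members were 48.9, 45.0 and 44.7 in NTG, siINO80#1 and siINO80#2. These are below the middle, whereas among all intervals of a list they lay above it. No paired analysis was possible because 1 peak list stands for the 3 replicates of an siRNA, and for the same reason replicates could not be left out in turn. Depth limits weak members, whose summits hold as few as 12 reads in NTG.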

Other observations

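Of the members, 14.96% (514 of 3435) lay within 10 kb of another member, and the median gap was 80195 bp. An AP-1 consensus lay elsewhere in the region, beyond 100 bp of a summit, in 195 members (5.68%). The second group of repeated members held 15, among them those in JAK1, ANO3 and VRK2, with a median of 260.5 copies, and had median shifts of -5.87 points with siINO80#1 and -13.5 with siINO80#2. The third held 7, among them EIPR1, FOXP2 and MIPOL1, with 102.5 copies and median shifts of 1.43 and -0.992.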
